A study of Mus musculus with 2 samples.

Results

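The translation initiation and elongation factor genes were taken as all autosomal, protein-coding genes whose symbol begins with Eif or Eef, and 63 of the 17859 annotated mouse genes with counts met this rule. Factors sharing these prefixes load the ribosome onto an mRNA, choose the start codon and then move the ribosome along the message. Eif1ax, Eif2s3x and Eif2s3y share the prefix but lie on sex chromosomes and were not taken, nor was the processed pseudogene Eif4a-ps4. The annotation has 3 further autosomal members that had no counts in either library. These are Eif4e1b, a germ line relative of the cap-binding protein, Eif4ebp3, an inhibitor of that protein, and Eef1akmt3, a methyltransferase of eEF1A. At 0 counts each, up to 3 counts per library are allowed, or 3.00 CPM (counts per 1000000 counts on annotated mouse genes) in replicate 1 and 2.92 CPM in replicate 2.

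All values come from the gastrocnemius, the large calf muscle, of male B6CASTF1/J mice aged 4 days. This hybrid has a C57BL/6 and a CAST parent, and the labels give no treatment, so the series holds 1 group and no contrast of conditions. Long-read RNA sequencing gave 1 library for each of 2 biological replicates, from 2 µg of total RNA. The replicates are separate biosamples under 1 donor entry, so they may or may not be separate mice, and the spread between them may be technical. Replicate 1 held 1066347 counts and replicate 2 held 1100253, with 998659 and 1026257 of them on annotated mouse genes. Muscle genes were high in both libraries (a summed 14.7% of counts for 7 markers in each), and 2 of 3 neuron markers were at 0 in both. The 6 epidermal markers summed to 4 counts in replicate 1 and 940 in replicate 2, with Krt1, Krt5, Krt14, Krt15 and Lor at 0 in replicate 1. The 4 Schwann cell markers summed to 1424 and 3543 counts, and the 4 fibroblast markers to 35935 and 24447. The part of other cells in any member's value was not tested, and in whole muscle fewer cells of a type and less RNA per cell cannot be told apart.

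Initiation begins when eIF2 brings the initiator tRNA to the small ribosomal subunit, eIF3 holds the complex together, and the eIF4 proteins recruit the capped mRNA. Kinases that phosphorylate eIF2 and small proteins that bind eIF4E are the best known brakes. In elongation, eEF1A delivers aminoacyl-tRNA, the eEF1B subunits recharge it with GTP, eEF2 moves the ribosome by a codon, and eIF5A relieves stalls. Skeletal muscle, heart and neurons are known to replace the eEF1A1 protein with the closely related eEF1A2 after birth. Only 1 age was measured here, so the data give a share and no change.

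The coding sequences of this gene pair are shown because each read must be assigned to the right member for the share to have a meaning. The lines give the first 120 coding bases from the start codon, read from the GENCODE M21 transcripts Eef1a2-201 and Eef1a1-201, with capitals where the genes differ.
Eef1a2: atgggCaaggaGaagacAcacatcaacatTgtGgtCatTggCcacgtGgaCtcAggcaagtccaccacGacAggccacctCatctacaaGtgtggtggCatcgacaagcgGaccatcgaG
Eef1a1: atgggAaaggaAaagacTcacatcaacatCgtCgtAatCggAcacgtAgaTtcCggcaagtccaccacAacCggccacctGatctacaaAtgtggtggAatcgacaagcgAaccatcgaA
In this stretch 18 of the 120 bases differed. Over 1389 aligned coding bases the genes were 80.1% identical, and 224 of the 276 differing bases (81.2%) fell at the third codon position. Their GC content was 56.8% in Eef1a2 and 49.7% in Eef1a1.

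Eef1a1 was the main eEF1A transcript of the muscle at this age. Eef1a2 (chr2:181147653-181157014, minus strand, mm10) had 99 counts in replicate 1 and 91 in replicate 2, and Eef1a1 (chr9:78478449-78489151, minus strand) had 888 and 865. Both libraries thus held about 9 Eef1a1 counts per Eef1a2 count (ratios of 8.97 in replicate 1 and 9.51 in replicate 2). The Eef1a2 share of the pair was 10.0% in replicate 1 (exact Clopper-Pearson 95% interval 8.23 to 12.1) and 9.52% in replicate 2 (7.73 to 11.6). Its mean was 9.77 ± 0.362% (SD, n = 2 libraries), and the intervals, which cover counting error only, overlapped. Counting full structures alone (classes Known, NIC and NNC, described next) gave 10.4% in replicate 1 and 11.1% in replicate 2, and 2 processed pseudogenes nearest to Eef1a1 held 1 and 2 counts in sum. In levels, Eef1a2 stood at 93.9 ± 7.40 CPM and Eef1a1 at 866 ± 32.8 CPM. Levels are read counts per library, not divided by length. How read recovery depends on transcript length was not tested between genes, and the ratio of the libraries moved with length (given with the library comparison), so orders of genes are orders of counts. The counted transcripts of the pair have similar lengths of 2084 and 1794 bases.

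**Figure D1:**
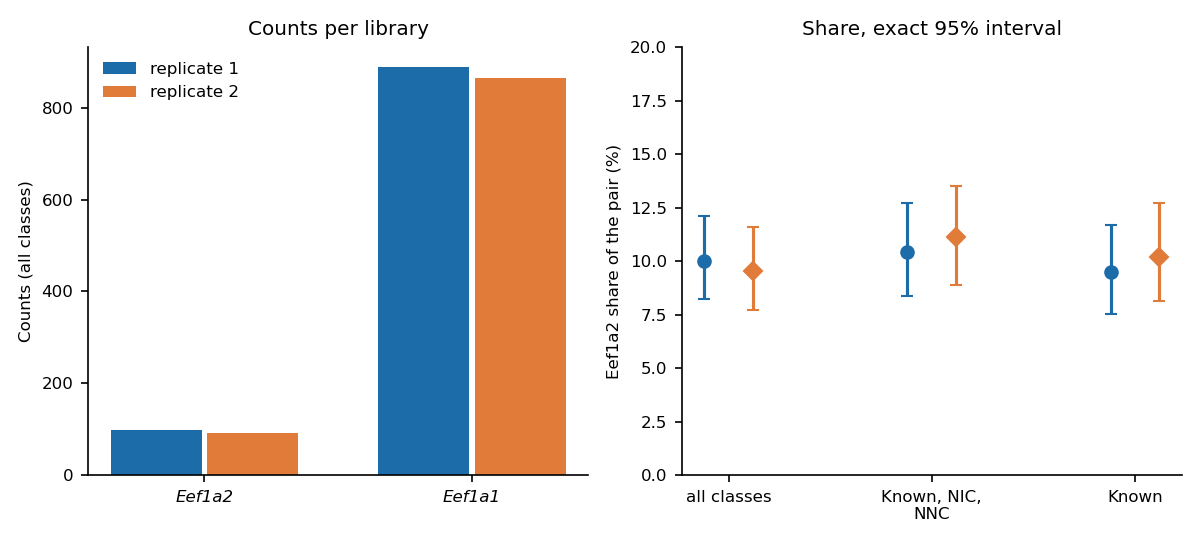
Left, counts of Eef1a2 and Eef1a1 in each library (bars, all transcript classes). Right, the Eef1a2 share of the pair in percent with its exact 95% interval, for 3 choices of transcript classes. The share lies between 9.48% and 11.1% in all 6 points, and the intervals of the libraries overlap.

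Together the 63 members held 10812 counts in replicate 1 (1.08% of annotated gene counts) and 11460 in replicate 2 (1.12%). For comparison, the 78 autosomal ribosomal protein genes held 1.46% and 2.04%, and 46 proteasome genes 0.653% and 0.719%. The members' sum therefore differed between libraries by a smaller fraction than that of the ribosomal protein genes, a description of sums with no test. Median transcript lengths were 2107 bases for the members and 789.8 for the ribosomal protein genes. The ratio of the libraries moved with length (given with the library comparison), and its part in this contrast was not tested. Elongation factors made up the largest part with 0.366 ± 0.00315% of counts on 10 genes. The cap-binding and helicase group followed with 0.273 ± 0.00952% on 11 genes, then eIF3 with 0.206 ± 0.0134% on 14 genes. Start codon selection and subunit joining factors gave 0.112 ± 0.0190% on 9 genes. The other 5 groups, eIF2, eIF2B, the eIF2 kinases, the cap-binding inhibitors and the elongation regulators, each stayed below 0.05%.

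**Figure D2:**
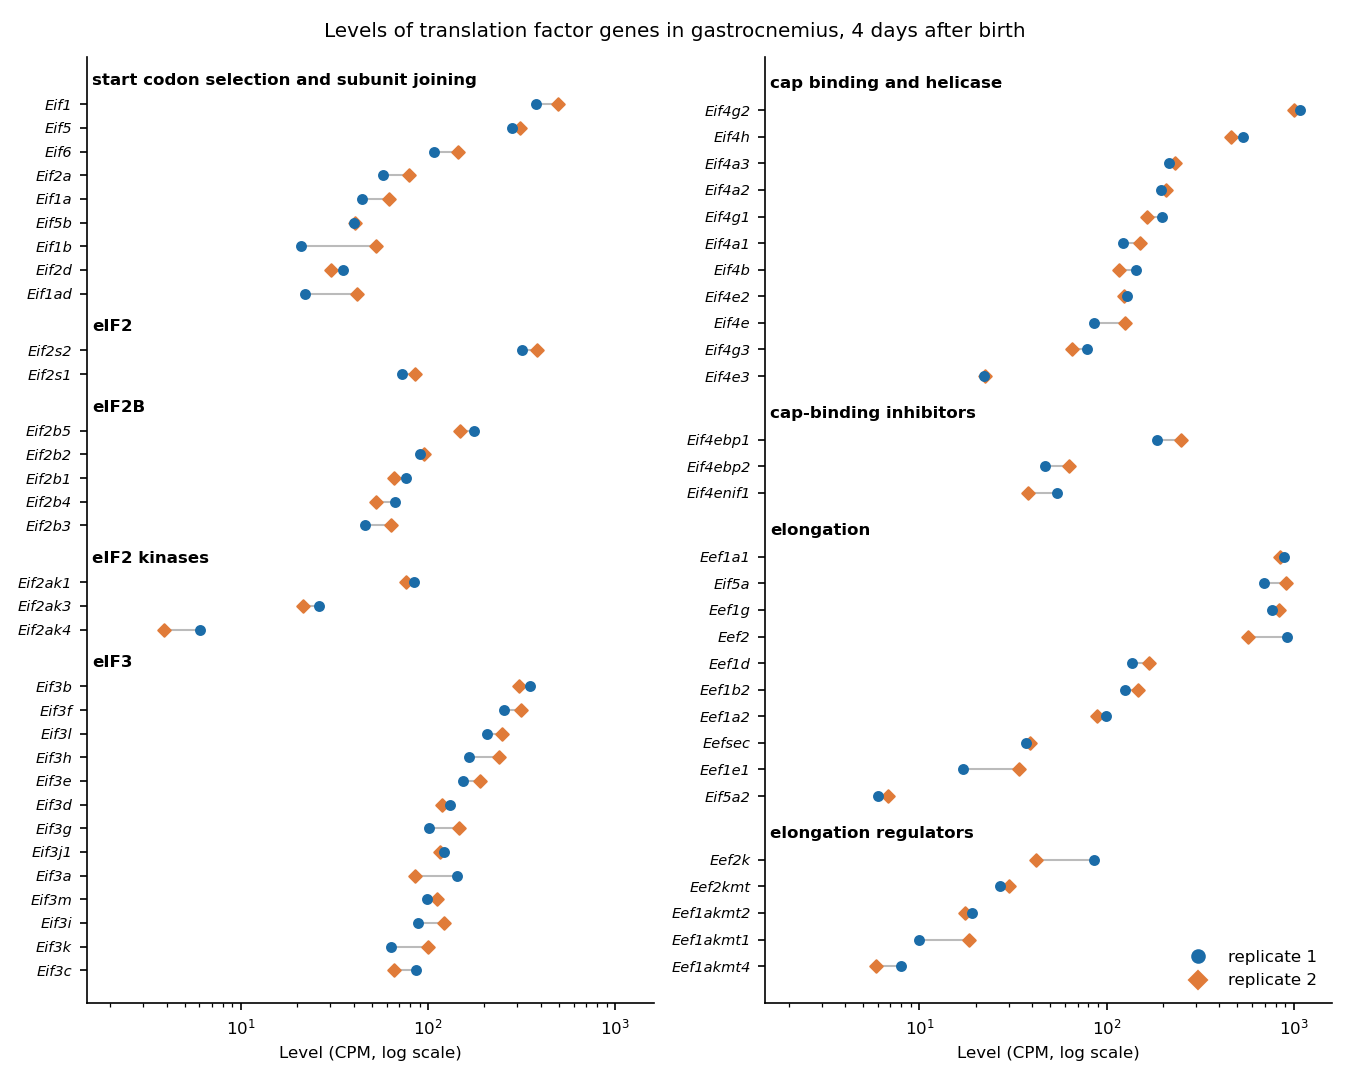
Level of each member with at least 10 counts in sum, in CPM on a log scale, grouped by role, with replicate 1 as circles and replicate 2 as diamonds joined by a line. The levels run from Eif2ak4 with 6 and 4 counts to Eif4g2 with 1072 and 1023, and in most rows the points lie close together compared with the distance between genes.

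Among the elongation factors, 4 genes stood far above the rest. Eef1a1 was followed by Eif5a, the factor that relieves stalled ribosomes, at 803 ± 157 CPM, with 691 counts in replicate 1 and 938 in replicate 2. Eef1g, the eEF1B gamma subunit, had 765 and 853 counts (799 ± 46.1 CPM), and Eef2, the translocase, had 916 and 583 (743 ± 247 CPM). Among these 4, the replicates of Eif5a and Eef2 spread so widely that their order cannot be read from the means. The nucleotide exchange subunits Eef1d (136 and 173 counts, 152 ± 22.9 CPM) and Eef1b2 (125 and 151, 136 ± 15.5 CPM) were well below Eef1g. Eefsec, which delivers selenocysteine, had 37 and 40 counts. Eef1e1, which scaffolds tRNA synthetases, had 17 and 35. Eif5a2, the second eIF5A gene, had 6 and 7 counts, against 691 and 938 for Eif5a.

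With all classes counted, the highest member was Eif4g2, an eIF4G relative that lacks the cap-binding region and drives cap-independent initiation, at 1035 ± 54.2 CPM. It had 1072 counts in replicate 1 and 1023 in replicate 2, against 197 and 168 for Eif4g1 and 78 and 67 for Eif4g3, the scaffolds of the cap-binding complex. Each library thus held several times more Eif4g2 counts than Eif4g1 and Eif4g3 counts together. The rank of Eif4g2 depended on the classes counted. With Known, NIC and NNC models alone it stood at 831 CPM, below Eif5a at 902 and Eef1g at 838. Those classes leave out its exon-skipping form (222 and 226 counts), given with the exon results. Eif4h, a helper of the eIF4A helicase, had 532 and 473 counts (497 ± 50.8 CPM). The helicase genes themselves lay lower, with 216 and 237 counts for Eif4a3, which acts in the exon junction complex, and 196 and 212 for Eif4a2. Eif4a1 had 122 and 154. The cap-binding protein gene Eif4e had 85 and 128 counts, its translational repressor relative Eif4e2 129 and 127, and Eif4e3 22 and 23. Of the inhibitors of eIF4E, Eif4ebp1 had 185 and 257 counts and Eif4ebp2 47 and 65, so Eif4ebp1 exceeded Eif4e in both libraries.

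Eif4a1 needs a limit, because a processed pseudogene on chromosome 1 is nearly identical to it over the pseudogene's length. Eif4a-ps4 matched transcript Eif4a1-213 over all 1218 of its bases with 1 difference, shown here in capitals.
Eif4a1: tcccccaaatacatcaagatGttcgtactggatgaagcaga
Eif4a-ps4: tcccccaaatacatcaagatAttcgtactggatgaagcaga
The pseudogene was assigned 109 counts in replicate 1 and 104 in replicate 2. Its part of the sum with Eif4a1 was 47.2% and 40.3%. If all of these were Eif4a1 molecules, the gene would have 231 and 258 counts (241 in place of 136 CPM on average). Its level is therefore uncertain within that range. The remaining pseudogenes most like a member held far fewer counts, with 5 and 9 for the copy nearest to Eef1g.

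Among the factors of start codon selection, Eif1, which guards the fidelity of start codon choice, led with 375 counts in replicate 1 and 506 in replicate 2 (434 ± 83.1 CPM). Its paralogue Eif1b had 21 and 54. Eif5, the GTPase activator of eIF2, had 280 and 317 counts (295 ± 20.2 CPM), and Eif6, which keeps the ribosomal subunits apart, had 108 and 148. The others (Eif1a, Eif1ad, Eif2a, Eif2d and Eif5b) lay between 22 and 81 counts per library. Eif2s2, the beta subunit of eIF2, had 319 and 392 counts (351 ± 44.2 CPM), while Eif2s1, the alpha subunit that the kinases phosphorylate, had 72 and 87. The gamma subunit genes are sex-linked and were not taken. The 5 subunits of eIF2B, the exchange factor that recharges eIF2, lay between 54.7 CPM (Eif2b3) and 162 CPM (Eif2b5, the catalytic subunit). The eIF2 kinases were low. Eif2ak1, the haem-regulated kinase, had 84 and 78 counts, and Eif2ak3, the kinase of the unfolded protein response, 26 and 22. Eif2ak4, which senses amino acid shortage, had 6 and 4, and Eif2ak2, which senses double-stranded RNA, 0 and 1.

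The eIF3 genes encode the subunits of 1 complex, and their levels spread over a several-fold range. Eif3b was highest at 328 ± 33.6 CPM (351 counts in replicate 1 and 312 in replicate 2), then Eif3f with 253 and 323 counts and Eif3l with 207 and 254. At the low end, Eif3c (86 and 67 counts, 75.7 ± 14.7 CPM) and Eif3k (63 and 102 counts, 81.2 ± 25.7 CPM) changed order between the libraries, so neither can be called the lower. Eif3j1 had 122 and 118 counts, while its copy Eif3j2 had 0 and 1, and how reads were divided between these copies was not tested. The elongation regulators were all low. Eef2k, the kinase that blocks eEF2, had 85 and 43 counts, and the lysine methyltransferases Eef2kmt, Eef1akmt1, Eef1akmt2 and Eef1akmt4 had between 6 and 31 counts per library.

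The deposited transcript models fall into classes. Known models match an annotated intron chain, ISM models match part of one, NIC models combine annotated splice sites in a way not annotated, NNC models use at least 1 unannotated splice site, and Genomic models do not follow the annotated introns. Known models took 80.0% of the members' counts in replicate 1 and 81.7% in replicate 2, a mean of 80.8 ± 1.14%, beside 74.0 ± 2.05% over all annotated genes. Unannotated combinations were scarcer in the members than over all genes. NIC stood at 3.50 ± 0.335% and NNC at 1.86 ± 0.0124%, beside 6.91 ± 0.554% and 6.49 ± 1.43%. The ribosomal protein and proteasome genes lay further from all genes, with Known models at 88.1% and 88.5%. Their NIC shares were 0.574% and 1.76%, and their NNC shares 1.11% and 1.78%. ISM models were more frequent, with 12.5 ± 1.05% beside 9.53 ± 0.293%. This pooled share rests on few genes: Eif4g2, Eef2, Eef1a1 and Eif4g1 held 60.7% of the members' ISM counts in replicate 1 and 58.5% in replicate 2, and the median member had 5.70% and 4.05%. Most of the members' ISM counts (93.7% in replicate 1 and 94.2% in replicate 2) were suffixes, models that keep the 3′ end of an annotated chain and miss its 5′ end. Eef2 is an example, with ISM shares of 29.7% and 34.8% and suffix models of 4 to 13 of its 14 exons. For Eef1a1 the shares were 18.1% and 23.6%. The most counted suffix model, of Eif4g2 (222 and 226 counts), was unlike these. It kept the introns of the gene's leading structure except 2, which 1 intron across the skipped exon replaced (given with the exon results).

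For the long scaffold genes ISM models held most of the counts. Eif4g1 had 66.5% and 53.6% of its counts in ISM models, Eif4g3 had 78.2% and 77.6%, and Known models held only 4.57% and 5.36% of Eif4g1 counts. In Eif4g3, a 24-exon suffix model was read 24 and 19 times, and the leading Known structure 3 and 1 times. That Known structure lacks introns that the suffix model holds, so it is not the fuller form. Eif4ebp2 differed from all of these, since 40 of its 47 counts in replicate 1 and 50 of 65 in replicate 2 were Genomic.

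Spliced structures were compared by their intron chains over Known, NIC and NNC models, for genes in which both libraries reached 20 of them. For some chains the class differed between the libraries, so a chain could be counted in 1 library only. An 8-exon Eif4e2 chain was ISM in replicate 1 (12 counts, left out) and NIC in replicate 2 (11 counts, kept). Of the 53 members that qualified, 52 (98.1%) had the same leading structure in both libraries, beside 95.4% of all 5351 qualifying genes. The leading structure was annotated in 52 of the 53 and unannotated in 1 (1.89%), beside 4.88% unannotated over all genes. It held a median of 93.3% of the gene's counts, beside 86.4% over all genes. In 33 members it held over 90%, up to Eif1b with all of its 21 and 54 counts, and so it did in 2228 of all 5351 genes. No member's share of the leading structure was called different between libraries when Fisher's exact test, two-sided, was adjusted by Benjamini-Hochberg over all qualifying genes. In the background 0.449% of genes were called. Of all 5351 genes 304 had an unadjusted p under 0.05 in this test, and so did 3 of the 53 members. These were Eif4e3 (71.4% of 21 counts in replicate 1 and all of 23 in replicate 2, adjusted p = 0.508), Eif4e (89.2% of 83 and 97.5% of 120, adjusted p = 0.660) and Eef2k (56.6% of 76 and 35.1% of 37, adjusted p = 0.855), named here after their values were seen.

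**Figure D3:**
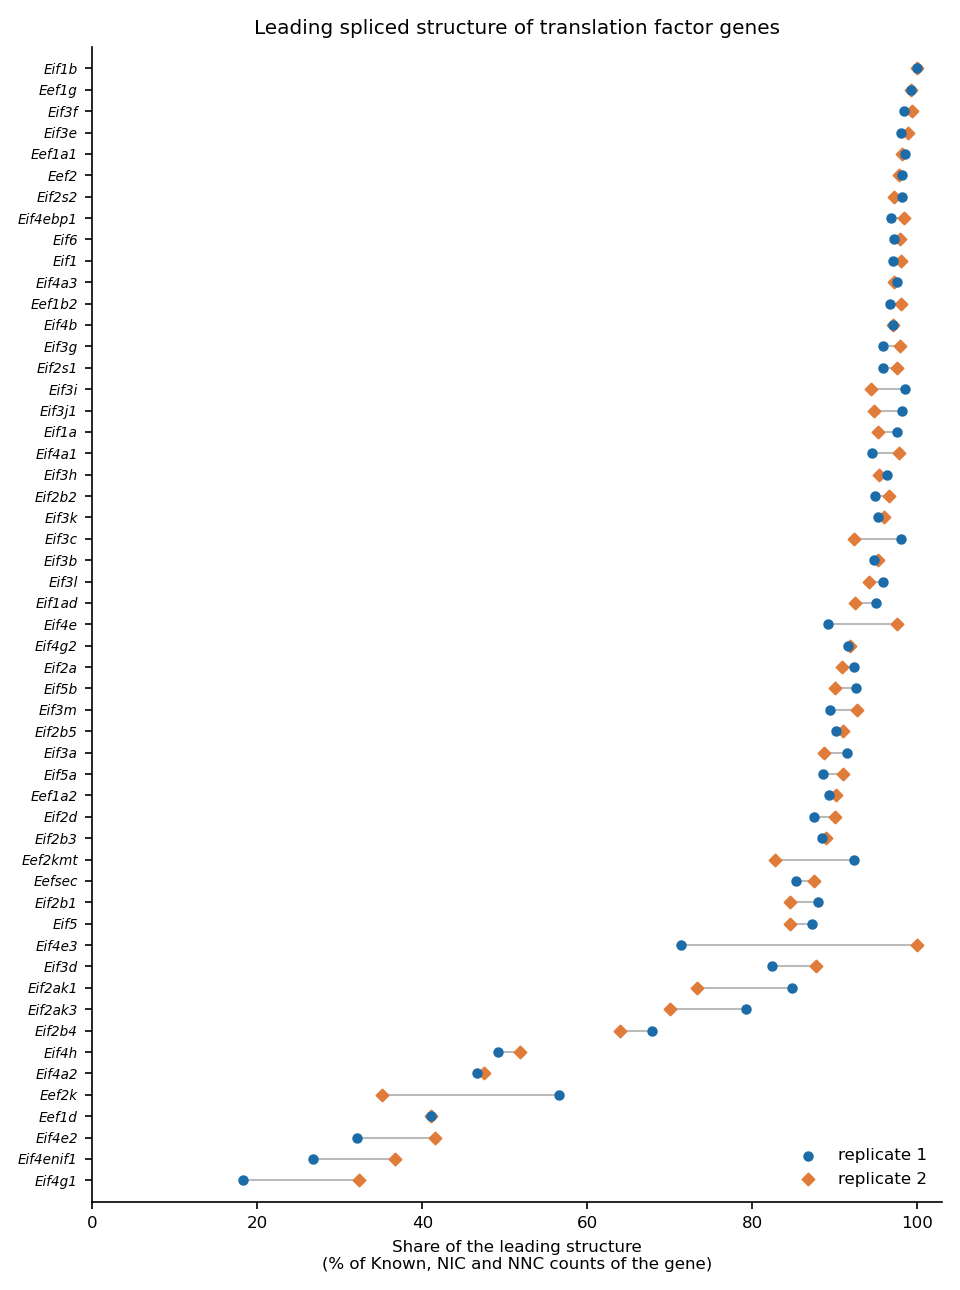
Share of the leading spliced structure among the Known, NIC and NNC counts of each of the 53 members, in percent, with replicate 1 as circles and replicate 2 as diamonds. Most members sit above 85% in both libraries, and 7 (Eif4h, Eif4a2, Eef2k, Eef1d, Eif4e2, Eif4enif1 and Eif4g1) have means below 60%, beside 1113 of all 5351 qualifying genes.

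Eif4g1 was the member whose leading structure differed between libraries and lay outside the annotation. Its 2 most counted structures were both NIC models of 33 exons, with 12 and 15 counts in replicate 1 and 20 and 13 in replicate 2. They differed by 3 bases at a single acceptor site, chr16:20681734-20681736 on the plus strand, which the first skips and the second includes. Allowing splice sites to differ by up to 5 bases joined them, and all 53 members then led with the same structure. Eif4a2 held a like choice of 3 bases at chr16:23108585-23108587. Eif4a2-201, which skips them, had 83 counts in replicate 1 and 86 in replicate 2, and Eif4a2-203, which includes them, had 33 and 46. In both genes the optional bases (capitals) are CAG within coding sequence, read from transcripts that include them.
Eif4g1: ccccgagggccgCAGgctggcctggga
Eif4a2: ggattacaacagCAGagaacatggcgg

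Exon choice was measured as the share of counts that include an internal exon, out of those that include it or splice across it, where both libraries reached 20 informative counts. Of 559 internal exons in 54 members, 510 were included at over 95% in both libraries and 23 at under 5% in both. A further 16 exons in 10 members were included at 5 to 95% in both libraries. Coding exons of 4 of these genes, each a multiple of 3 bases long, are shown because the next results turn on them. They are printed with 15 flanking bases on each side in lower case and the exon in capitals. Each was read from a GENCODE M21 transcript that holds it. For the 57-base Eef1d exon this was Eef1d-203, which lacks the 72-base exon, so both Eef1d lines show the same flanks. Of the 54 and 66 counts with the 57-base exon, 46 and 53 were on 1 structure with the 72-base exon before it. A further structure with both exons held 5 and 6.
Eif4h, 60 bases: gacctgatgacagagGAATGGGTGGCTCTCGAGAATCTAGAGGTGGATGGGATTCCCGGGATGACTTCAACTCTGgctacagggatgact
Eef1d, 57 bases: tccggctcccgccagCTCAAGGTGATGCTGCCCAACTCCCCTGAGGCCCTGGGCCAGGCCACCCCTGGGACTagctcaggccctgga
Eef1d, 72 bases: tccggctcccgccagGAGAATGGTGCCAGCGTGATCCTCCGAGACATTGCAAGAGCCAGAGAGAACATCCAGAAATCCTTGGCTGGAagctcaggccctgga
Eif4enif1, 72 bases: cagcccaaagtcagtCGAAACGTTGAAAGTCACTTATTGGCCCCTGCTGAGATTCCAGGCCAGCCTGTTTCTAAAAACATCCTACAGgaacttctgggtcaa
Eif4g2, 114 bases: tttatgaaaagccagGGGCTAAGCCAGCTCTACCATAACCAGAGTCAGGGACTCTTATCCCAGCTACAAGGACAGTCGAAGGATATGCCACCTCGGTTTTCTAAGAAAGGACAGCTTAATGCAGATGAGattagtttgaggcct

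The 60-base exon of Eif4h (chr5:134624441-134624500, minus strand) split the transcripts nearly evenly. It was included in 247 of 491 counts in replicate 1 (50.3%, interval 45.8 to 54.8) and 237 of 443 in replicate 2 (53.5%, 48.7 to 58.2), a mean of 51.9 ± 2.26%. The corresponding transcripts are Eif4h-205 with 7 exons and a frame of 248 codons (241 and 229 counts), and Eif4h-201 with 6 exons and 228 codons (240 and 200 counts). The intervals overlapped, and which of the forms is the more common cannot be said from these libraries.

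Eef1d combined 2 optional exons. The 57-base exon (chr15:75897226-75897282, minus strand) was included in 40.3% of 134 counts in replicate 1, and replicate 2 gave 39.8% of 166. The 72-base exon that precedes it (chr15:75900691-75900762) was included in 110 of 134 (82.1%) and 135 of 163 (82.8%). Most counts fell on 3 structures. Eef1d-218, with the longer exon alone, had 55 and 68 counts. An NIC model with both exons had 46 and 53, and Eef1d-205, with neither, had 22 and 25. The second most counted form of this eEF1B subunit was therefore an intron chain that GENCODE M21 lacks, at 34.3% of Known, NIC and NNC counts in replicate 1 and 31.9% in replicate 2. The shorter annotated transcript Eef1d-213, with 7 exons, does hold both optional exons.

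The 114-base exon of Eif4g2 (chr7:111076280-111076393, minus strand) was included in 779 of 1030 counts in replicate 1 (75.6%, interval 72.9 to 78.2) and 734 of 993 in replicate 2 (73.9%, 71.1 to 76.6). Eif4g2-213, which holds it, led with 688 and 660 counts. The main form without it had 21 exons and was classed ISM, with 222 and 226 counts, so the structure comparison above, which leaves out ISM models, did not see it. The annotated coding frames are 906 codons in Eif4g2-213 and 868 in Eif4g2-206, the annotated transcript without the exon.

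Eif4enif1, which carries eIF4E into the nucleus and into mRNA granules, included its 72-base exon (chr11:3233988-3234059, plus strand) in 26 of 45 counts in replicate 1 (57.8%), while replicate 2 had 18 of 30, a mean of 58.9 ± 1.57%. Its counts were spread over 14 structures, and the leading Eif4enif1-203 held 12 and 11 counts. Eif4e2 had an exon of 79 bases (chr1:87232403-87232481, plus strand) in 24 of 58 counts (41.4%) and 19 of 33 (57.6%), with wide and overlapping intervals. In its annotated transcript that exon contains the end of the coding frame. A structure of Eif4e2 joining other annotated sites, NIC in class, had 21 counts in replicate 1 and 5 in replicate 2.

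Eif4a2 showed 2 intermediate exons besides its 3-base choice. The 140-base exon (chr16:23109120-23109259, plus strand) is coding and not a multiple of 3, and was included in 161 of 183 counts (88.0%) and 159 of 191 (83.2%). A 111-base exon at chr16:23112351-23112461 that no annotated transcript holds with both ends was included in 29 of 159 counts in replicate 1 (18.2%, interval 12.6 to 25.1) and 15 of 162 in replicate 2 (9.26%, 5.28 to 14.8). In the 5′ part of Eif4g1, exons of 57 and 94 bases (chr16:20673599-20673655 and chr16:20673868-20673961) were included in 35 of 43 and 46 of 55 counts in replicate 1, and 42 of 48 and 51 of 59 in replicate 2. The first is in the 5′ UTR in all 5 annotated transcripts that hold it.

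The remaining 6 intermediate exons lay near the limits or had few counts. Eef2k included exons of 94, 135 and 189 bases (chr7:120844696-120844789, chr7:120891596-120891730 and chr7:120891865-120892053, plus strand) at 13.5 ± 1.40%, 77.7 ± 8.25% and 92.7 ± 3.00%. Eefsec included exons of 157 and 660 bases (chr6:88281549-88281705 and chr6:88297577-88298236, minus strand) at 91.8 ± 0.936% and 93.4 ± 1.26%, with 34 to 40 counts per library. Eif3m included a 144-base exon (chr2:105001271-105001414, minus strand) at 92.6 ± 2.70%.

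**Figure D4:**
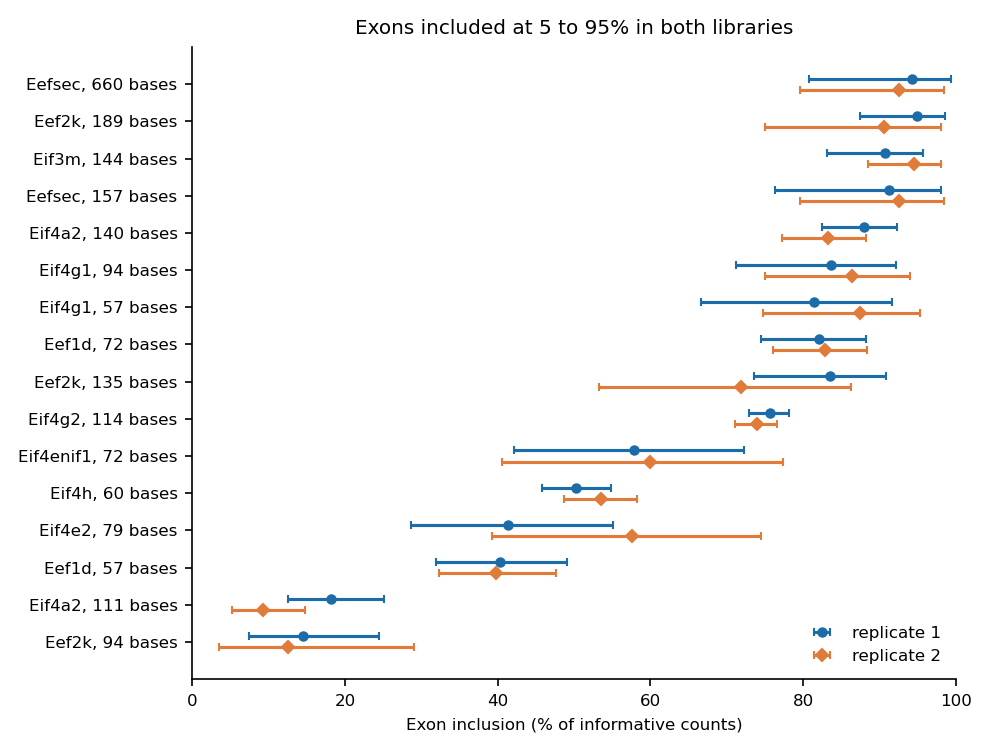
Inclusion in percent of the 16 member exons used at 5 to 95% in both libraries, with exact Clopper-Pearson 95% intervals, replicate 1 as circles and replicate 2 as diamonds. Labels give the gene and exon length. The intervals of the libraries overlap for each exon, and the Eif4h exon lies at 50.3% and 53.5%.

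The libraries were compared with each other gene by gene by Fisher's exact test, two-sided, with Benjamini-Hochberg adjustment over the 11027 annotated genes with at least 10 counts in sum. This test holds counting error only and compares 2 libraries, not conditions. Of 61 members tested, 9 (14.8%) were called at an adjusted p under 0.05, beside 9.74% of all genes. In replicate 1, 3 were higher (4.49% of all genes were) and 6 lower (5.25% of all genes). The shares depend on depth: with at least 50 counts in sum, 11 of 54 members were called, beside 18.3% of all genes. Among the 9, Eef2 had the smallest adjusted p, with 917 CPM in replicate 1 and 568 CPM in replicate 2 (log2 ratio 0.69, exact 95% interval 0.54 to 0.84, adjusted p = 9.11e-18). Eef2k was higher by a log2 ratio of 1.01 (85 and 43 counts, adjusted p = 0.00286), and Eif3a, the largest eIF3 scaffold subunit, by 0.74 (142 and 87, adjusted p = 0.00279). These 3 genes have the long transcripts of the called set, at 3089 to 5639 bases.

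Lower in replicate 1 were Eif5a (log2 ratio -0.40, adjusted p = 1.58e-06), Eif1 (-0.39, adjusted p = 0.00158) and Eif1b (-1.30, adjusted p = 0.00419). The others were the eIF3 subunit genes Eif3h (166 and 244 counts, -0.51, adjusted p = 0.00698) and Eif3g (101 and 150 counts, -0.53, adjusted p = 0.0465), and Eif4ebp1 (-0.43, adjusted p = 0.0224). Their transcripts were 1035 to 1997 bases long. Just outside the threshold were Eif3k with 63 and 102 counts (adjusted p = 0.0504) and Eif4e with 85 and 128 (adjusted p = 0.0584). With a preset biological variation of 0.1 in edgeR's exact test no member passed, beside 1.56% of all genes. An unadjusted p under 0.05 in that test was found for 8 members, a count without its share over all genes.

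Transcript length is here the mean length of a gene's Known models, weighted by their counts. The members' ratios moved with it as those of all genes did. The median log2 ratio over all genes was -0.43 for transcripts under 1000 bases, -0.27 for 1000 to 2000, 0.04 for 2000 to 3000 and 0.25 above that, and the members' medians were -0.75, -0.28, -0.07 and 0.26 (2, 24, 17 and 18 genes). All 6 lower calls fell in the class of 1000 to 2000 bases and all 3 higher calls in the longest class. When each gene was set against the median of its length class, an alternative chosen after seeing the data, Eef2 was the only one of the 9 still called, with a log2 ratio of 0.44. The lost calls were unlike: Eif1b stayed at -1.03 (adjusted p = 0.0572), Eef2k at 0.77 (adjusted p = 0.0650) and Eif3a at 0.50 (adjusted p = 0.130), while Eif1, Eif5a and Eif4ebp1 lay at -0.12, -0.13 and -0.17, and Eif3h and Eif3g at -0.25 and -0.26. Eef1a1 (0.34, adjusted p = 4.15e-05) and Eif5 (-0.39, adjusted p = 0.0251) were called in addition, which makes 3 of 61 members beside 5.87% of all genes. The part of length or RNA quality in the other calls was not tested.

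**Figure D5:**
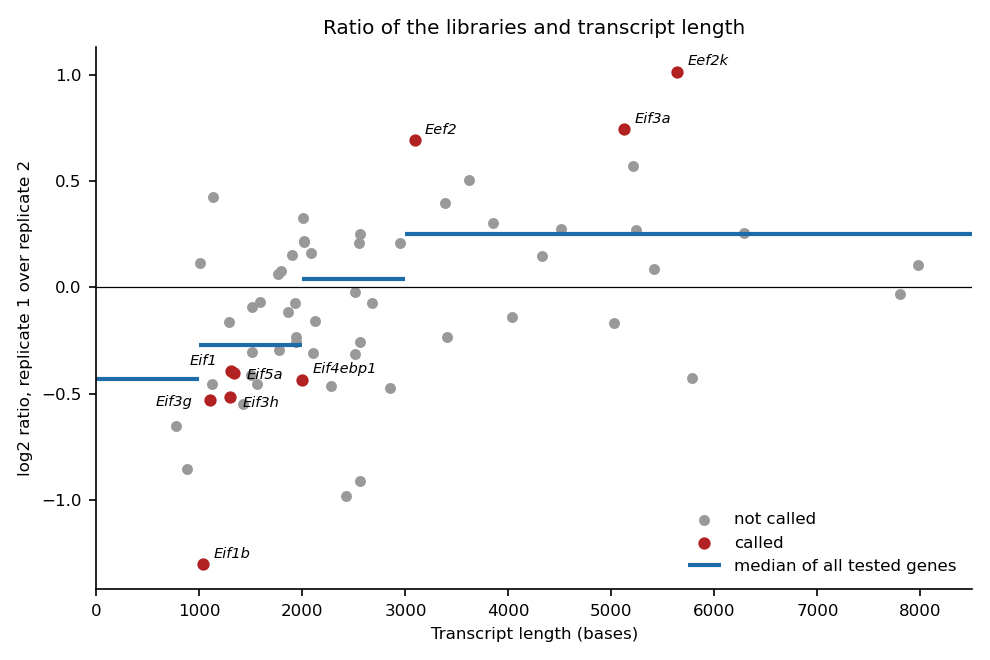
Log2 ratio of replicate 1 over replicate 2 against transcript length in bases for the 61 members tested, with called members in red and named. Blue lines are the median ratio of all tested genes in each length class, from -0.43 for the shortest to 0.25 for the longest. Members called higher lie at 3089 bases or more and those called lower at 1997 or less.

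A list of 40 other translation genes, chosen for their place in the pathway, held 2935 counts in replicate 1 and 3013 in replicate 2 on the 39 genes with counts (0.294% of annotated gene counts in each). Mknk2, a kinase that phosphorylates eIF4E, was highest with 661 and 458 counts (adjusted p = 5.86e-09). Paip2, an inhibitor of poly(A)-binding protein, had 262 and 367 (adjusted p = 0.00286), and Tpt1, a growth-related protein gene, had 276 and 349 (adjusted p = 0.0860). Rheb, the activator of mTOR, had 141 and 182 counts, and Hbs1l, a rescue factor of stalled ribosomes, had 166 and 150. Of 39 tested, 3 were called, beside 9.74% of all genes. Mknk2 was higher in replicate 1, and Paip2 and Denr (18 and 49 counts, adjusted p = 0.00451), which releases subunits after termination, were lower. Mknk2 has a counted transcript length of 3428 bases, Paip2 of 1462 and Denr of 2335. Pabpc1, the poly(A)-binding protein gene, had 127 and 155 counts, and Atf4, the transcription factor whose translation rises when eIF2 is phosphorylated, had 67 and 69.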

How the data were processed

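The deposited tables hold raw counts of reads per transcript model for each library, per the file headers, on mm10 and GENCODE M21, as a readme with the files states. For the authors' aligner and tool versions: not given in the sources used here. For each gene, counts of all classes were added and divided by the library's annotated gene total (CPM). Members and lists were chosen with earlier results of these data known. Fully given are the Eef1a pair, the 10 highest members, called members, members with unannotated or differing leading structures, and intermediate exons. Of the other translation genes, the 5 highest and the called ones are given. Fisher's exact tests used scipy 1.17.1 with Benjamini-Hochberg adjustment (statsmodels 0.14.6), and log2 ratios a prior count of 0.5. Pseudogenes were matched with blastn 2.17.0, scaling alternatives used edgeR 4.0.16 and DESeq2 1.42.0, and sequences came from the GENCODE M21 transcripts. On simulated counts at these depths, 96 of 100 genes made 2-fold higher and 70 of 100 made 2-fold lower were recovered. The step held 10688 genes and gave 2 false calls. All changed genes had at least 100 counts in sum, so recovery of members below that was not tested. The simulation held counting error only, so its false calls do not give the rate between real libraries. With 998659 and 1026257 annotated gene counts, members near 10 counts carry wide intervals. Alternatives were other scalings, count minimums, transcript classes, a preset variation, splice site tolerance and leaving out a replicate. No fit over conditions was possible with 1 group.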

Additional observations from a re-analysis of the deposited data

Results flagged for a closer look

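Counts outside the members were found on copies of member genes, above the 3 counts that a count of 0 allows. The processed pseudogene Eif4a-ps4 had 109 counts in replicate 1 and 104 in replicate 2, and Gm4366, the copy nearest to Eef1g with 99.6% identity over 1342 bases, had 5 and 9. No control samples exist for this signal.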

How the results depend on the processing

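No paired analysis was possible because the series has 1 group. Library calls depended on the assumed spread. With counting error only, 9 members and 3 of the other translation genes were called (9.74% of all genes). With edgeR's exact test at a preset variation of 0.1, 0 and 0 were called (1.56% of all genes), with 8 and 2 at an unadjusted p under 0.05. At 0.2 there were 0 and 0 calls (0.508% of all genes), with 2 and 1 at that unadjusted level. Scaling within length classes, chosen after seeing the data, left 3 of 61 members (5.87% of all genes), of which 1 was shared with the 9. Of 61 members, 10 were called under TMM (9.63% of all genes) and 12 under DESeq2 size factors (9.33%). With a minimum of 1 count 8 of 63 were called (5.05% of all genes). With 50 counts 11 of 54 were called (18.3% of all genes), and with full classes 9 of 60 (10.1% of all genes). The Eef1a2 share was 10.7% with Known, NIC and NNC counts and 9.52 to 10.0% with either replicate left out. The members' share of counts was 1.03% of all counts in place of 1.10% of annotated gene counts, and 1.08 to 1.12% with either replicate left out. The Known share was 93.8% over Known, NIC and NNC counts in place of 80.8%, and 80.0 to 81.7% with either replicate left out. With ISM models counted, 2 members led with an unannotated structure (Eif4g1 and Eif4g3) in place of 1. With at least 50 informative counts, 8 exons in place of 16 were intermediate, since fewer exons qualified (421 of 559). Of 96 recomputed log2 ratios of 24 named members, length scaling left out, 1 ended a call (Eif3g, -0.51 with full classes, adjusted p = 0.0678). A prior count of 1, among these settings, changed the ratio alone and could not end a call. With the length scaling included, 9 ratios lost a call and 2 gained one. Depth limits the low members, where intervals span over a log2 unit.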
